A study of Arabidopsis thaliana with 4 samples.

Results

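The 4 AUX1/LAX auxin importers (AUX1, LAX1, LAX2 and LAX3) and 3 ATP-binding cassette B auxin transporters (ABCB1, ABCB4 and ABCB19) were taken by their gene identifiers from an expression table of 33565 Arabidopsis thaliana genes. All 7 were in the table and had values above 0 in every library. The table came from RNA-seq of whole roots of Col-0, the wild type of this study, at 7 days of age. Plants had grown on half-strength MS medium with 10 μM methyl jasmonate (JA), with 50 nM of the synthetic cytokinin BAP (cytokinin), with the same amounts of both hormones (JA/cytokinin), or with neither (control). Each condition had 1 library, 4 in all, so no difference between conditions could be set against the spread of replicates and no p-value is given. Values are FPKM, that is, sequenced fragments scaled to the length of the transcript and to the mapped fragments of the library. Genes and libraries were compared on these values as deposited. Rescaling of the libraries, by factors from 0.986 to 1.034, was run as an alternative and changed some calls near a threshold. From 98605532 to 115141812 reads were sequenced per library, and the 95% intervals given below come from fragment numbers estimated from the FPKM values and cover counting error only. In whole roots, fewer cells that express a gene and less RNA per cell cannot be told apart.

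Auxin moves from cell to cell because it is pumped in and out. AUX1 and its LAX relatives are proton-driven permeases that carry auxin into the cell, whereas ABCB proteins use ATP to move it across the plasma membrane, in most settings outwards. Together with the polar PIN efflux carriers they set where auxin collects in the root, and through this they take part in gravitropism, root hair growth, vascular patterning and lateral root formation.

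The labels were first set against 1 known response gene for each hormone. JAZ10, a JA-induced repressor of JA signalling, had 449.1 FPKM with JA, 6.85 with cytokinin and 259.6 with both hormones, against 2.59 in control roots. ARR7, a cytokinin-induced response regulator, had 2.15, 20.7 and 35.03 FPKM in the same order, against 14.2 in control roots. All 18 markers of 6 root cell types and tissues were above 0 in every library. The 12 shoot markers, YABBY and stomatal lineage genes, summed to 0.660 FPKM with JA, 0.346 with cytokinin and 1.955 with both hormones, against 12.4 in control roots. Of these, 11 were highest in the control library, where none was at 0, and FIL, YAB5, MUTE and FAMA were at 0 in all 3 hormone libraries. Their part in ratios to the control library was not tested. The comparison of JA/cytokinin with cytokinin does not use that library.

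None of the 7 genes differed by at least 2-fold from control roots in any treatment. Ratios were taken over the 22291 genes that were detected in every library, of which 20.6% differed by that much under JA, 15.0% under cytokinin and 23.0% under both hormones. With both hormones, ABCB4 had 2.02-fold lower FPKM than with cytokinin alone and was the 1 gene of the 7 past 2-fold in that comparison, in which 7.80% of all genes were that much lower and 10.2% that much higher (18.0% in either direction). None of the 7 passed 2-fold between JA/cytokinin and JA, against 17.6% of all genes (8.48% higher and 9.10% lower).

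A lower line of 1.5-fold separated the genes further. With JA, ABCB19 was the 1 gene of the 7 past it against control, on the lower side, where 19.0% of all genes lay (17.1% were higher, 36.1% either). With cytokinin, LAX3 and ABCB4 were past it on the higher side and none on the lower, beside 11.7% and 15.3% of all genes (27.0% either). LAX3 was at the line and fell short of it after either rescaling of the libraries and with a pseudocount of 1 FPKM (log2 ratios of 0.54, 0.54 and 0.58). With both hormones LAX2 was higher and LAX1 lower than control by that much, beside 20.6% and 19.2% of all genes (39.9% either). Against cytokinin alone, JA/cytokinin went with lower ABCB1, ABCB4 and ABCB19 and with none of the 7 higher, beside 15.5% and 19.3% of all genes (34.8% either). Against JA alone, LAX2 and LAX3 were higher and LAX1 lower, beside 16.3% and 15.2% of all genes (31.5% either). Both LAX1 calls ended with a pseudocount of 1 FPKM, at log2 ratios of -0.48 against control and -0.49 against JA.

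**Figure D1:**
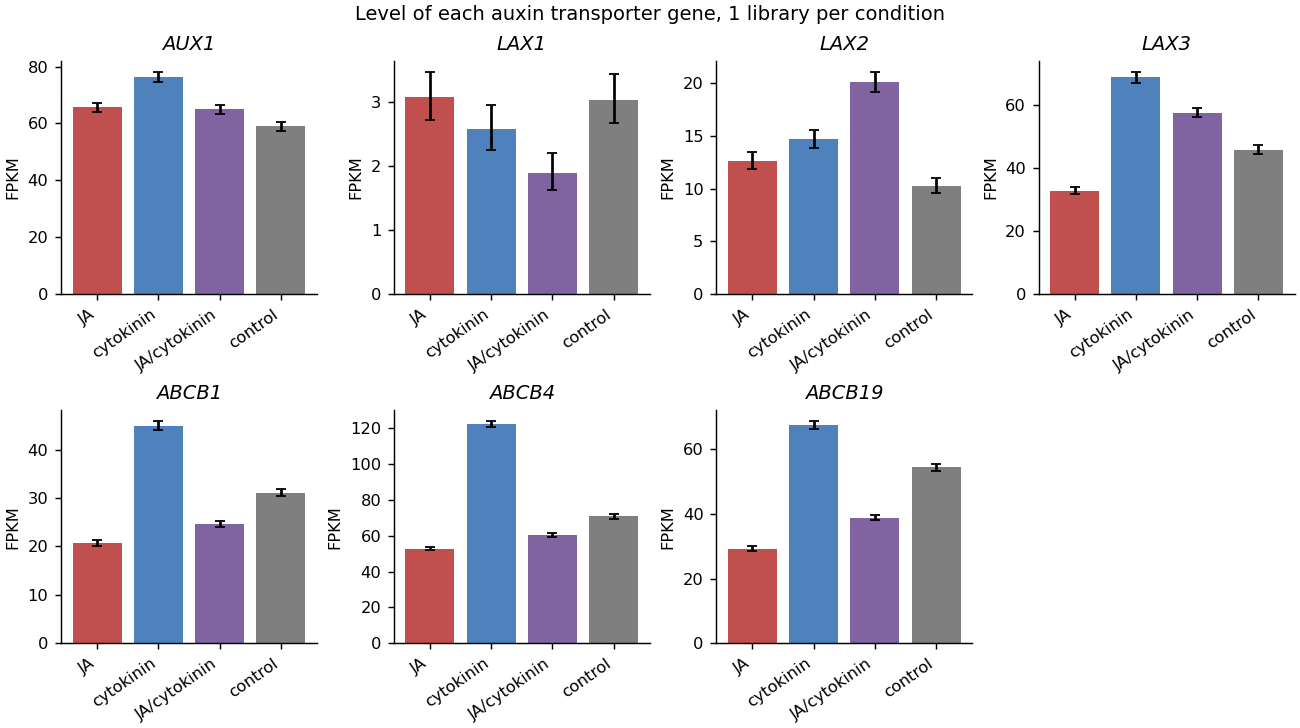
FPKM (vertical axes, each starting at 0) of the 7 genes in the JA, cytokinin, JA/cytokinin and control libraries; bars are single libraries and error bars are 95% counting intervals. ABCB1, ABCB4 and ABCB19 share 1 order of bars, with cytokinin highest and JA lowest, while AUX1 lies between 59.0 and 76.3 FPKM in all 4 libraries.

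Among the importers, AUX1 (AT2G38120) was the most abundant in every library and the least variable of the 7 genes. AUX1 works in the root cap and epidermis, where it is needed for gravitropism. The gene lies on chromosome 2 from 15972876 to 15977180 on the plus strand in TAIR10.1, with 9 exons in its listed transcript. It had 65.7 FPKM with JA (95% interval 64.1 to 67.3), 76.3 under cytokinin (74.5 to 78.0) and 65.0 with both hormones (63.5 to 66.6), against 59.0 in control roots (57.5 to 60.6). Its highest value was 1.29 times its lowest, and its JA and JA/cytokinin values could not be told apart by counting error (log2 ratio -0.01, 95% interval -0.06 to 0.04). After rescaling the libraries by the median ratio or a trimmed mean that ratio was -0.08 or -0.07, outside this interval. To show how usual a ratio was, it was placed among the genes of similar mean FPKM, using 10 equal groups of the 22291 genes. With cytokinin the log2 ratio of AUX1 to control was 0.37, and 13.4% of the 2229 genes of similar FPKM were at least as high. With JA the log2 ratio was 0.15, a value that 33.2% of those genes reached.

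LAX3 (AT1G77690, chromosome 1 from 29200417 to 29203418 on the minus strand, 7 exons) was the second importer by level. LAX3 is induced by auxin in the cells that overlie a lateral root primordium and helps the new root to emerge. It had 32.9 FPKM with JA (31.8 to 34.0), 68.9 under cytokinin (67.2 to 70.5) and 57.7 with both hormones (56.3 to 59.2), against 45.9 in control roots (44.5 to 47.2). The JA library was thus the lowest and both libraries with cytokinin were above control. With cytokinin its FPKM was 1.501-fold that of control roots, and 6.01% of genes of similar FPKM were at least as high. The log2 ratio to control was -0.48 with JA, with 17.1% of similar genes at least as low. Added to JA, cytokinin went with a log2 ratio of 0.81 (95% interval 0.75 to 0.87), and 5.25% of similar genes were at least as high.

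LAX2 (AT2G21050, chromosome 2 from 9034056 to 9036636 on the plus strand, 6 exons), which acts in vascular development, was the 1 gene of the 7 whose level was higher with JA than without it in both backgrounds by more than counting error. It had 12.7 FPKM with JA (11.9 to 13.5), 14.7 under cytokinin (13.9 to 15.6) and 20.1 with both hormones (19.1 to 21.1), against 10.3 in control roots (9.60 to 11.1). All 3 treatments were above control, and the library with both hormones was the highest. The log2 ratio of JA/cytokinin to control was 0.96, which is 1.95-fold and just under the 2-fold criterion. At least as high a ratio was seen in 7.09% of the 2229 genes of similar FPKM. The separate ratios to control were 0.30 with JA and 0.52 with cytokinin on the log2 scale.

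LAX1 (AT5G01240, chromosome 5 from 97536 to 101835 on the plus strand) was the least abundant of the 7 and the only one lower with cytokinin than without it in both backgrounds. Its value is for 2 listed transcripts together. It had 3.08 FPKM with JA (2.72 to 3.47), 2.59 under cytokinin (2.25 to 2.95) and 1.90 with both hormones (1.63 to 2.20), against 3.04 in control roots (2.68 to 3.44). The JA and control values overlapped within counting error, and so did those of cytokinin and control. The library with both hormones was the lowest, from an estimated 176 fragments. The log2 ratio of JA/cytokinin to control was -0.68 (95% interval -0.96 to -0.40), with 21.4% of genes of similar FPKM at least as low.

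The 3 ABCB genes shared the same order of libraries, cytokinin, control, JA/cytokinin and JA from high to low. ABCB1, ABCB4 and ABCB19 were each lower with JA than without it and higher with cytokinin than without it, in both backgrounds. Of all 22291 genes, 11.1% had this order. ABCB1 (AT2G36910, chromosome 2 from 15501726 to 15507501 on the plus strand, 10 exons) and ABCB19 (AT3G28860, chromosome 3 from 10870005 to 10877578 on the minus strand, 10 exons) export auxin and together support its transport through the stele towards the root tip. ABCB4 (AT2G47000, chromosome 2 from 19309643 to 19315343 on the minus strand, 12 exons) is expressed mainly in roots, acts in the epidermis and root hairs, and has been described as carrying auxin inwards or outwards depending on its concentration.

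ABCB4 was the most abundant of the 3 in every library. It had 52.8 FPKM with JA (51.8 to 53.8), 122.4 under cytokinin (120.9 to 124.0) and 60.6 with both hormones (59.6 to 61.7), against 70.8 in control roots (69.6 to 72.0). The cytokinin library stood above the other 3. The log2 ratio to control was 0.79 with cytokinin, with 6.19% of the 2229 genes of similar FPKM at least as high, and -0.42 with JA, with 22.9% at least as low. With cytokinin present, JA went with a log2 ratio of -1.01 (95% interval -1.05 to -0.98), so that counting error alone spans the 2-fold line, and 6.82% of similar genes were at least as low. In the annotation ABCB4 overlaps AT2G46995 on the same strand, which was listed at 0 FPKM in all 4 libraries, and the long noncoding RNA gene AT2G09775 on the other strand, whose level was not analysed here.

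ABCB19 differed from control roots with JA by more than the other 6 genes did. It had 29.2 FPKM with JA (28.5 to 30.02), 67.5 under cytokinin (66.3 to 68.7) and 38.9 with both hormones (38.0 to 39.8), against 54.5 in control roots (53.4 to 55.5). Both libraries with JA lay below both libraries without it. The log2 ratio of JA to control was -0.90 (95% interval -0.94 to -0.85), which is 1.86-fold lower, with 7.31% of the genes of similar FPKM at least as low. With cytokinin present the corresponding log2 ratio was -0.80, with 7.63% of them at least as low.

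ABCB1 had 20.8 FPKM with JA (20.1 to 21.4), 44.9 under cytokinin (44.03 to 45.9) and 24.7 with both hormones (24.1 to 25.4), against 31.1 in control roots (30.4 to 31.9). As for ABCB19, both libraries with JA were below both without it. Its log2 ratio was -0.58 for JA against control, at the edge of 1.5-fold, and -0.86 for JA/cytokinin against cytokinin. At least as low a ratio was found in 13.3% of the 2230 genes of similar FPKM for the first comparison and in 5.78% for the second.

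**Figure D2:**
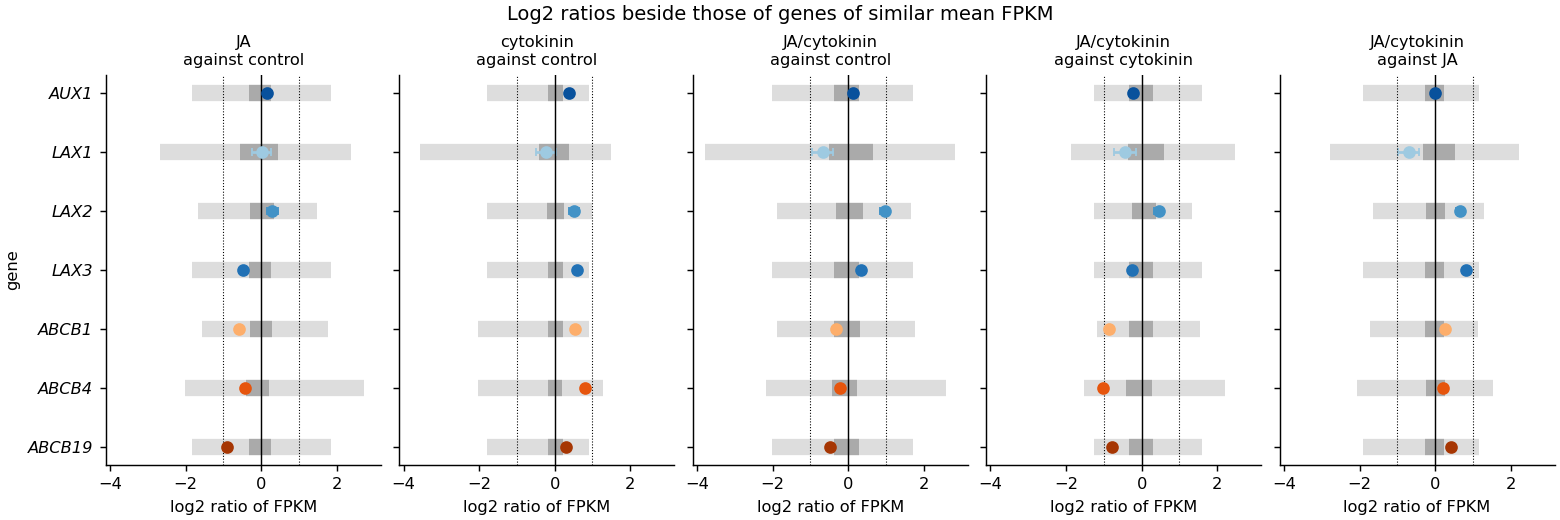
Log2 ratios of FPKM (horizontal axis) of the 7 genes (rows) in 5 comparisons; points carry 95% counting intervals, dark grey bands hold the interquartile range and light grey bands the middle 95% of genes of similar mean FPKM, and dotted lines mark 2-fold. Every point lies within its light grey band, and ABCB4 with both hormones against cytokinin lies at -1.01, on the 2-fold line.

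For a view of the regulatory stretch of the genes that were lower with JA and higher with cytokinin, the 120 bases before the annotated start of LAX3, ABCB1, ABCB4 and ABCB19 are shown 5′ to 3′ on the strand of the gene, from TAIR10.1. Capitals mark the letters of a searched motif on either strand. The stretches are chr1:29203419-29203538 for LAX3, chr2:15501606-15501725 for ABCB1, chr2:19315344-19315463 for ABCB4 and chr3:10877579-10877698 for ABCB19.
LAX3: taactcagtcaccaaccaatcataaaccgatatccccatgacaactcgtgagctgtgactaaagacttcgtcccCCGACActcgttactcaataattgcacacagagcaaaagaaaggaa
ABCB1: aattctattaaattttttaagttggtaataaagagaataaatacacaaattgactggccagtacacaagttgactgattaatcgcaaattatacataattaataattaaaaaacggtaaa
ABCB4: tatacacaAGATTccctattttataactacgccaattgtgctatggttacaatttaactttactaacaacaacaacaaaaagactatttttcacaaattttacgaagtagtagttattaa
ABCB19: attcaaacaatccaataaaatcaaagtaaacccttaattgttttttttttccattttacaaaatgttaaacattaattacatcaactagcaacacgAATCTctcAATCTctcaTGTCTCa

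The search covered 250 bases before the start of each gene and both strands. It used TGTCTC and TGTCGG, which auxin response factors bind, CACGTG (the G-box) and CACATG, which MYC2 binds, and AGATT, the core bound by type-B response regulators. No searched motif overlaps another in these stretches. LAX3 held TGTCGG on the reverse strand, 46 to 41 bases before its start, and ABCB19 held TGTCTC 7 to 2 bases before its start. Of 27443 protein-coding nuclear genes, 4.16% held TGTCGG and 10.9% held TGTCTC in this window. AGATT was present in LAX1, ABCB4 and ABCB19, 3 of the 7 genes, and in 63.7% of all. ABCB19 held it 3 times, once beyond the stretch shown. CACATG was found in AUX1 alone of the 7 (11.1% of all genes) and CACGTG in none of the 7 (6.49%). ABCB1 and LAX2 held none of the 5.

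The effects of JA without and with cytokinin were then set side by side. These 2 comparisons share no library. The log2 ratios without and with cytokinin were -0.58 and -0.86 for ABCB1, -0.42 and -1.01 for ABCB4, -0.90 and -0.80 for ABCB19 and -0.48 and -0.25 for LAX3. These 4 genes were lower with JA in both backgrounds, and 37.5% of all genes were. The same 4 were also higher with cytokinin in both backgrounds, and 18.0% of all genes had all 4 of these signs. For ABCB4 the JA effect with cytokinin minus that without it was -0.59 on the log2 scale, a gap as negative as this being present in 8.17% of genes of similar FPKM. For the other 6 genes the gap was between -0.46 and 0.22. LAX2 was higher with JA in both backgrounds, by log2 ratios of 0.30 and 0.45. AUX1 and LAX1 had opposite signs, 0.15 and -0.23 for AUX1 and 0.02 and -0.44 for LAX1.

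**Figure D3:**
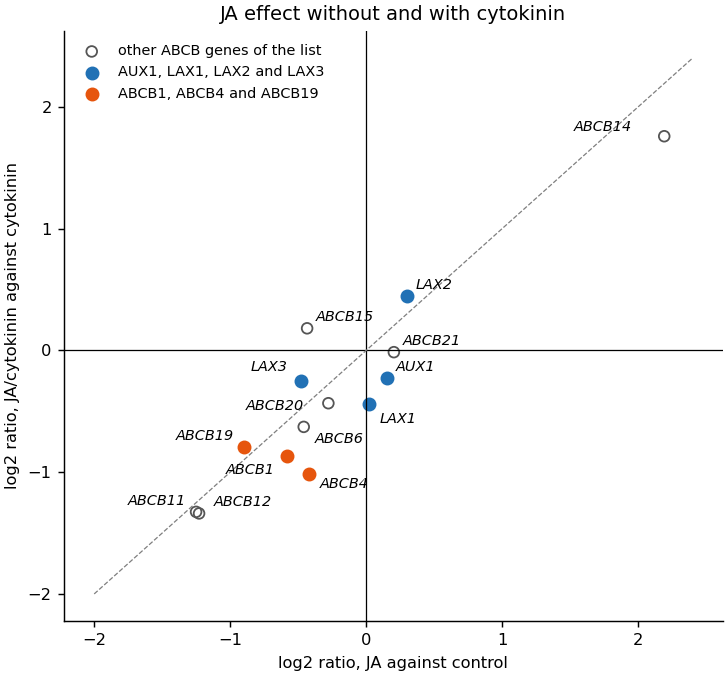
Log2 ratio of JA/cytokinin to cytokinin (vertical axis) against that of JA to control (horizontal axis) for the 4 AUX1/LAX genes, the 3 ABCB genes and 7 other ABCB genes of the list; each point is 1 gene and the dashed line marks equal effects. ABCB1, ABCB4 and ABCB19 lie at the lower left, at or below -0.42 on both axes, and so do ABCB6, ABCB11 and ABCB12. ABCB11 and ABCB12 lie further out than the members. LAX2 lies in the upper right, and ABCB14 lies further out there, at 2.19 and 1.76.

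Summed FPKM put the importers and the ABCB transporters on a common scale. The 4 AUX1/LAX genes summed to 114.3 FPKM with JA, 162.4 with cytokinin and 144.7 with both hormones, against 118.3 in control roots. The 3 ABCB genes summed to 102.8, 234.8 and 124.2 FPKM in the same order, against 156.4 in control roots. The ABCB sum was therefore above the importer sum in the cytokinin and control libraries and below it in both libraries with JA. The ratio of the ABCB to the importer sum was 0.899 with JA, 1.45 with cytokinin and 0.858 with both hormones, against 1.32 in control roots. The log2 ratio of JA to control was -0.61 for the ABCB sum and -0.05 for the importer sum. That of JA/cytokinin to cytokinin was -0.92 for the ABCB sum and -0.17 for the importer sum.

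Within the importers the mixture also differed between libraries. AUX1 made up 57.4% of the importer sum with JA, 46.9% with cytokinin and 44.9% with both hormones, against 49.9% in control roots. LAX3 made up 28.8%, 42.4% and 39.9% in the same order, against 38.8% in control roots. AUX1 was 2.00 times as abundant as LAX3 with JA and 1.11 to 1.29 times in the other 3 libraries. The shares of the 3 ABCB genes spanned fewer percentage points than those of AUX1 and LAX3, that of ABCB4 being 51.4% of the ABCB sum with JA, 52.1% with cytokinin and 48.8% with both hormones, against 45.3% in control roots.

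**Figure D4:**
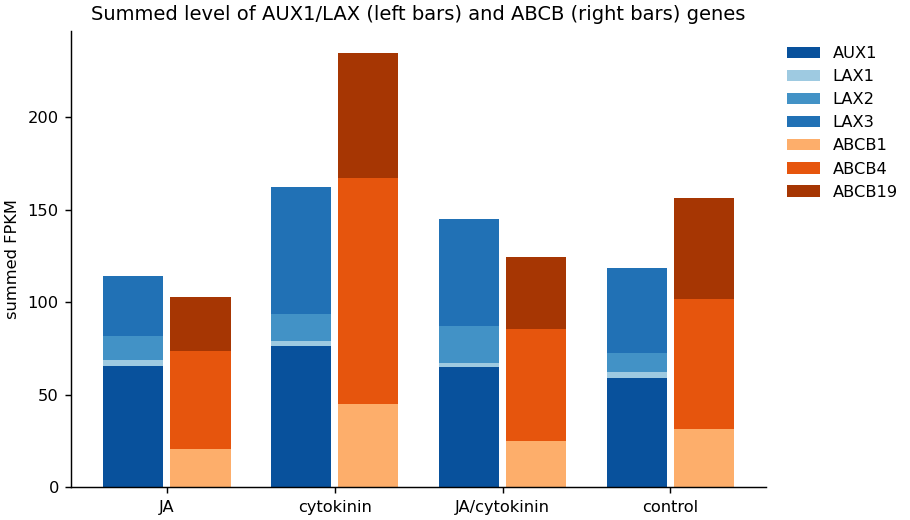
Summed FPKM (vertical axis) of AUX1, LAX1, LAX2 and LAX3 (left, blue bars) and of ABCB1, ABCB4 and ABCB19 (right, orange bars) in each library; segments are single genes. The ABCB bar is 234.8 with cytokinin and 102.8 with JA, whereas the importer bar is between 114.3 and 162.4 in all libraries.

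The other auxin transport genes gave a mixed picture. The list held 18 further carriers, of which 16 were above 0 in all libraries, and PILS1 and PILS4 were not. With JA, ABCB14 and PILS7 were above control by 2-fold or more (9.32% of all genes were) and ABCB11 and ABCB12 below it by 2-fold or more (11.3%). ABCB12 and PILS7 no longer passed with a pseudocount of 0.1 FPKM or a minimum of 1 FPKM in some library, and with a pseudocount of 1 FPKM or a minimum mean of 1 FPKM ABCB11 alone was left. The median log2 ratio of the 16 was -0.25, against -0.02 over all genes. ABCB11 had 5.55 FPKM with JA, 15.1 with cytokinin and 6.01 with both hormones, against 13.2 in control roots, and so shared the library order of ABCB1, ABCB4 and ABCB19. ABCB12, its neighbour on chromosome 1, had 0.0905 FPKM with JA and 0.212 in control roots, and reads of such related neighbours may be split between them. ABCB20 had the same order at lower contrast, with a log2 ratio of -0.28 for JA against control. ABCB6 was also lower with JA in both backgrounds, as 37.5% of all genes were, by log2 ratios of -0.46 without and -0.63 with cytokinin. ABCB14, in contrast, had 1.18 FPKM with JA, 0.258 with cytokinin and 0.874 with both hormones, against 0.259 in control roots. ABCB21, the close relative of ABCB4, had 2.504, 1.82 and 1.80 FPKM in the same order, against 2.17 in control roots, and did not share the ABCB4 pattern.

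With cytokinin, 1 of the 16 carriers was above control by 2-fold or more (5.19% of all genes), which was PILS7, at 0.579 FPKM, and 1 was lower (9.77%), which was ABCB15. The PILS7 call ended with a pseudocount of 1 FPKM. With JA/cytokinin 3 were higher (11.4% of all genes) and 4 lower (11.6%), and the median log2 ratio was -0.43 against 0.04 over all genes. The higher calls of ABCB14 and PILS7 ended with a pseudocount of 1 FPKM or a minimum mean of 1 FPKM, which left WAT1. After either rescaling NRT1.1 also passed, on the lower side. WAT1, a vacuolar auxin exporter, had 75.7 FPKM with JA, 170.6 with cytokinin and 186.1 with both hormones, against 90.2 in control roots. PILS5, a carrier of the endoplasmic reticulum, had 147.1, 324.6 and 302.4 FPKM in the same order, against 173.4 in control roots. In both genes the libraries with cytokinin stood above those without it. ABCG36 and ABCG37, which export the auxin precursor indole-3-butyric acid, were highest in control roots, and with JA/cytokinin their log2 ratios to control were -1.07 for ABCG36 and -1.18 for ABCG37. Between JA/cytokinin and cytokinin, ABCB14 was at least 2-fold higher (10.2% of all genes) and ABCB11 and ABCB12 that much lower (7.80%), the calls of ABCB12 and ABCB14 ending with a pseudocount of 1 FPKM. Between JA/cytokinin and JA, WAT1 and PILS5 were that much higher (8.48% of all genes) and none of the 16 lower (9.10%), and PILS5, at a log2 ratio of 1.04, fell short of 2-fold after either rescaling of the libraries.

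Proteins that place or activate the carriers were listed as 13 trafficking and kinase partners. AXR4, which the cell needs to bring AUX1 to the plasma membrane, had 32.0 FPKM with JA, 46.4 with cytokinin and 37.4 with both hormones, against 34.5 in control roots. TWD1, the immunophilin-like partner of ABCB1 and ABCB19, had 20.8, 21.8 and 25.1 FPKM in the same order, against 20.8 in control roots. Both thus stayed within a log2 ratio of 0.43 of control in every treatment. PHOT1, a blue light receptor kinase that phosphorylates ABCB19, had 2.43 FPKM with JA, 17.2 with cytokinin and 5.71 with both hormones, against 17.5 in control roots. It was at least 2-fold lower with JA in both backgrounds, by log2 ratios of -2.85 and -1.59. Of the 13 partners, 1 was at least 2-fold higher and 3 lower with JA than in control roots (9.32% and 11.3% of all genes), and none passed 2-fold with cytokinin alone (15.0% of all genes did). With both hormones 2 were higher and 1 lower than control (11.4% and 11.6% of all genes), 2 higher and 1 lower than with cytokinin (10.2% and 7.80%), and 4 higher and 1 lower than with JA (8.48% and 9.10%). With a pseudocount of 1 FPKM, WAG1 and WAG2 no longer passed with JA (2 of 4 calls left), nor PHOT1 and PID between JA/cytokinin and JA (3 of 5 left).

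PINOID (PID), the kinase that directs PIN proteins, was more than 2-fold above control with both hormones. It had 5.46 FPKM with JA, 5.27 with cytokinin and 11.8 with both hormones, against 2.99 in control roots. Its order of libraries put the treatment with both hormones on top and control at the bottom, as for LAX2, and its log2 ratio of JA/cytokinin to control was 1.98. WAG1 and WAG2, related kinases, were lower than control with JA by log2 ratios of -1.72 and -1.12 and were within 0.36 of control in the libraries with cytokinin.

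Of the PIN efflux carriers, 7 of 8 were above 0 in all libraries. With JA, PIN4 and PIN5 were at least 2-fold lower than control (11.3% of all genes) and none was that much higher (9.32%), and with cytokinin none of the 7 passed 2-fold (15.0%). With both hormones PIN5 and PIN6 were at least 2-fold higher than in each of the other 3 libraries, beside 11.4% of all genes against control, 10.2% against cytokinin and 8.48% against JA. Both are low, PIN5 at 0.165 FPKM with JA, 3.18 with cytokinin and 6.62 with both hormones, against 2.47 in control roots, and PIN6 at 0.257, 0.244 and 1.19 FPKM, against 0.233. With a pseudocount of 1 FPKM the PIN6 calls ended in all 3 comparisons and that of PIN5 against cytokinin, and PIN6 was left out by a minimum mean of 1 FPKM. PIN4 had 7.29 FPKM with JA, 36.4 with cytokinin and 12.8 with both hormones, against 18.3 in control roots. With both hormones it was thus at least 2-fold lower than with cytokinin alone, by a log2 ratio of -1.50 (7.80% of all genes were that much lower). This PIN4 call held with a pseudocount of 1 FPKM. PIN2 and PIN4 had the same order of libraries as the 3 ABCB genes (11.1% of all genes had it), and PIN7 had that of LAX3 (6.90%). The median log2 ratio of the 7 PIN genes was -0.33 with JA and 0.36 with cytokinin, beside -0.42 and 0.52 for the 7 AUX1/LAX and ABCB genes and -0.02 and 0.05 over all genes. With JA/cytokinin the medians against control were 0.32 for the PIN genes and -0.22 for the AUX1/LAX and ABCB genes. These 3 comparisons share the control library. The difference between the lists was not tested.

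**Figure D5:**
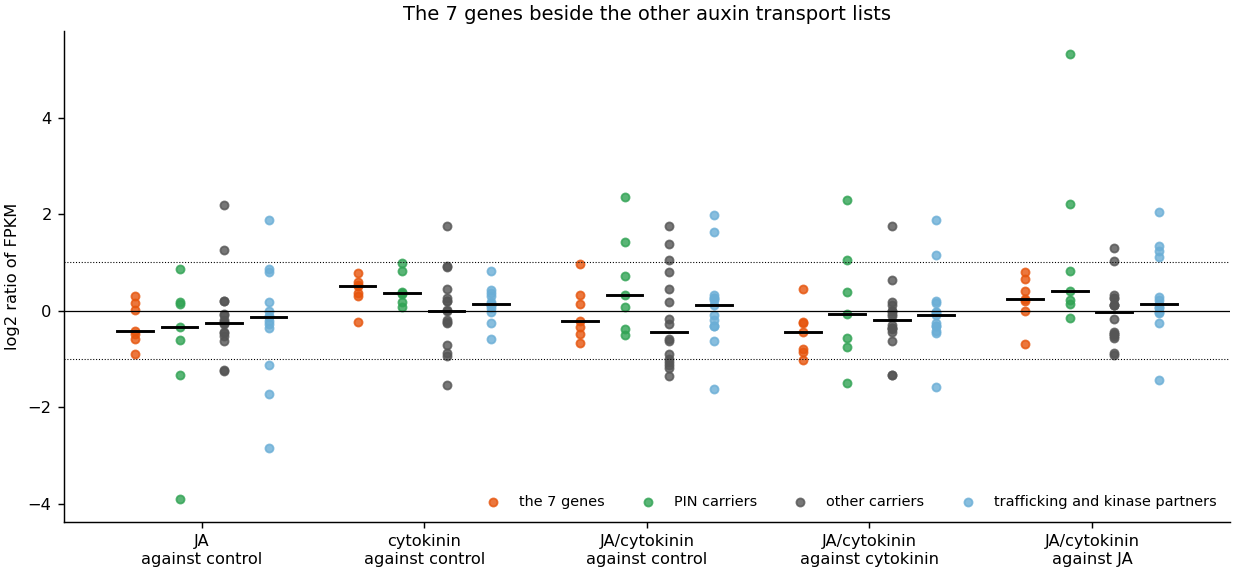
Log2 ratio of FPKM (vertical axis) in 5 comparisons for the 7 genes, 7 PIN genes, 16 other carriers and 13 trafficking and kinase partners, all detected in every library; points are genes, black bars are medians and dotted lines mark 2-fold. The 7 genes lie between -1.01 and 0.96 throughout, while each of the other lists has genes beyond 2-fold with JA, as 20.6% of all genes are. Of these, ABCB12, ABCB14, PILS7, WAG1 and WAG2 no longer pass with a pseudocount of 1 FPKM, at which the count over all genes with JA falls from 4598 to 2553.

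For LAX3, the upstream route of its auxin induction was also listed. ARF7 and ARF19, the activators, and IAA14, the repressor, stayed between -0.33 and 0.53 of control on the log2 scale in all treatments. ARF19 and IAA14 shared the library order of LAX3, which 6.90% of all genes had. In the other lists PILS5, PILS6, AXR4, WAG1, WAG2 and PIN7 had it as well. LBD16, a lateral root regulator induced by the same activators, had 17.1 FPKM with JA, 3.55 with cytokinin and 7.06 with both hormones, against 4.43 in control roots. LBD29, its relative, had 1.45 FPKM with JA, 2.24 with cytokinin and 1.02 with both hormones, against 1.80 in control roots, from an estimated 40.9 to 81.5 fragments per library. LBD16 was thus highest in the library in which LAX3 was lowest. LBD29 was lower with JA in both backgrounds, as LAX3 and 37.5% of all genes were, by log2 ratios of -0.31 and -1.13. The first of these ratios rests on an estimated 55.2 fragments with JA and 65.5 in control roots, and its counting interval was not computed. Of the 5 genes, LBD16 was at least 2-fold higher with JA than in control roots (9.32% of all genes, 20.6% in either direction). LBD29 was that much lower for JA/cytokinin against cytokinin (7.80%, 18.0% in either direction), and 0 of the 5 passed there with a pseudocount of 1 FPKM. For JA/cytokinin against JA, LBD16 was that much lower (9.10%, 17.6% in either direction).

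Markers of root tissues also differed between the libraries. Of those named here, COBL9 and GL2 alone had the library order of the ABCB genes, which 11.1% of all genes had. The ground tissue markers CASP1 and SCR summed to 84.5 FPKM with JA, 248.9 with cytokinin and 100.2 with both hormones, against 272.0 in control roots, both being lower with JA in both backgrounds. The 4 root hair markers summed to 240.5 FPKM with JA, 330.4 with cytokinin and 202.9 with both hormones, against 219.8 in control roots, and did not move as one. COBL9 had 12.4, 38.7 and 17.5 FPKM in the same order, against 25.6 in control roots, which is the library order of the ABCB genes. The other 3 were above control with JA, by log2 ratios of 0.20 for EXPA7, 0.14 for EXPA18 and 1.09 for RHD6. Of the 2 epidermis markers, GL2 had 3.65, 8.46 and 5.09 FPKM, against 7.84 in control roots, again the order of the ABCB genes, and WER had 18.1, 24.2 and 26.6 FPKM, against 23.3. Root cap markers summed to 12.1, 22.2 and 24.6 FPKM in the same order, against 19.0, and the 3 stele markers to 54.0, 71.2 and 92.8 FPKM, against 53.4. The stele markers differed among themselves, with log2 ratios to control with JA of 1.20 for APL, 0.20 for SHR and -0.74 for AHK4. In the same order the ratios were -0.04, -0.14 and 0.69 with cytokinin and 2.09, 0.08 and 0.40 with both hormones. The paper uses AHK4, under the name WOL, as a marker that responds to cytokinin. The part of these tissues in the levels of the 7 genes was not tested.

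Genes whose pattern was most like that of each member were found by the smallest gap over the 3 log2 ratios to control, over 4 libraries and among named genes with at least 5 FPKM in each. For ABCB1 the closest was GAUT7, with a largest gap of 0.055, at 20.2 FPKM with JA, 44.9 with cytokinin and 25.4 with both hormones, against 31.5 in control roots. For ABCB19 they were the genes KAS III and BCCP2 (0.042 and 0.055), and for ABCB4 FLA6 and TET12 (0.091 and 0.13). LAX3 was closest to ADT6 and ADS2 (0.064 and 0.090), and AUX1 to ACS and FT1 (0.035 and 0.046). For LAX1 they were SBP1 and ML5 (0.070 and 0.078). For LAX2 no gene lay within 0.1, and APK3 and SARK were the closest (0.10 each).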

How the data were processed

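The authors prepared polyA-selected TruSeq libraries, sequenced them from both ends on an Illumina HiSeq and calculated FPKM with Cufflinks on TAIR10. The submitters' processing notes name Bowtie, and versions are not given in the sources used here. The deposited FPKM table holds 1 value per gene and library. A deposited count of reads and bases sequenced per library, before alignment, and 3 unnamed percent columns accompany it, and the authors' percent values were not used.

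Ratios of FPKM were computed on the log2 scale with no pseudocount over 22291 genes above 0 in all 4 libraries. Depth was estimated from the step of low FPKM values of genes with 1 listed transcript, taking transcript lengths from TAIR10.1. A fragment length of 160 gave the sharpest step. By it 85.6% to 90.8% of sequenced pairs had been mapped, and 62.0% to 63.9% of the low values fell within 0.1 of a whole fragment number. Later transcript models can differ from those of TAIR10, so these numbers are estimates. Intervals are exact (Poisson for a level, Clopper-Pearson for a ratio) at the 95% level.

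Genes named are the 7 members, the fixed lists (81 loci in all, each with a matching symbol in the gene table of TAIR10.1) and the 2 genes closest in pattern to each member. Members and lists were chosen with earlier results of these data known. Alternatives were pseudocounts of 0.1 and 1 FPKM, rescaling by the median ratio or a trimmed mean of log ratios, thresholds of 1.5-fold and 3-fold, and 2 filters on low FPKM. Steps were tested on simulated data. Scripts ran in Python 3.11.15 with pandas 2.3.3, numpy 2.4.6 and scipy 1.17.1, and plots were drawn with matplotlib 3.10.9.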

Additional observations from a re-analysis of the deposited data

Results flagged for a closer look

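AUX1 and LAX1 had JA effects of opposite sign without and with cytokinin. For AUX1 the effect with cytokinin minus that without it was -0.38 on the log2 scale, a gap as negative as this being present in 10.4% of genes of similar FPKM. For LAX1 it was -0.46, with 14.0% of similar genes at least as negative, and its JA effect without cytokinin, 0.02, lay within counting error of 0. Each effect rests on 1 library per condition, and the difference was not tested.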

How the results depend on the processing

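No paired analysis was possible because there was a single library per condition, so no replicate could be left out either. Rescaling and both pseudocounts left the sign of all 35 log2 ratios of the 7 genes unchanged, and ABCB4 with JA/cytokinin against cytokinin remained the 1 ratio past 2-fold. The largest shift was 0.20, for LAX1 with a pseudocount of 1. At 1.5-fold 11 of the 35 ratios passed, 10 after either rescaling, which LAX3 with cytokinin did not pass, and 8 with a pseudocount of 1, which also ended both LAX1 calls.

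Counts past the threshold moved by construction. Of the 7 genes, 1 under JA, 2 under cytokinin and 2 under both hormones passed 1.5-fold against control, 3 between JA/cytokinin and cytokinin and 3 between JA/cytokinin and JA, and at 3-fold ABCB4 no longer passed (0 genes). Over all 22291 genes, the counts were 4598 under JA, 3334 under cytokinin and 5119 under both hormones against control, 4006 for JA/cytokinin against cytokinin and 3920 against JA. In the same order they were 8038, 6028, 8885, 7760 and 7019 at 1.5-fold, 2381, 1693, 2800, 1853 and 2014 at 3-fold, and 2553, 1703, 2989, 1911 and 2013 with a pseudocount of 1. Among the 41 of 44 other auxin transport genes above 0 in all libraries, 11 passed under JA, 2 under cytokinin and 12 under both hormones against control, 10 against cytokinin and 10 against JA. In the same order 20.6%, 15.0%, 23.0%, 18.0% and 17.6% of all genes passed. At 3-fold the counts among the 41 were 6, 1, 5, 4 and 3, beside the all-gene counts at 3-fold given above. At 1.5-fold they were 16, 11, 21, 14 and 13, beside 36.1%, 27.0%, 39.9%, 34.8% and 31.5% of all genes. With a pseudocount of 1 they were 6, 1, 9, 5 and 7, where the all-gene counts given above are lower as well. Either filter on low FPKM left 1 with cytokinin, as PILS7 dropped out. The all-gene count with cytokinin was then 2556 for a minimum of 1 FPKM in some library and 2239 for a minimum mean of 1 FPKM.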

Other observations

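Among the marker lists, APL, a phloem identity gene, had 20.04 FPKM with JA, 8.52 with cytokinin and 37.1 with both hormones, against 8.75 in control roots. PUCHI, a regulator of lateral root primordia, had 5.13, 2.46 and 1.47 FPKM in the same order, against 2.02 in control roots, and GATA23, a gene of lateral root founder cells, had 1.81, 4.13 and 5.95 FPKM, against 2.53. PUCHI was thus highest with JA and lowest with both hormones, and GATA23 was highest with both hormones and lowest with JA. D6PKL3, a kinase related to D6PK, had 40.7 FPKM with JA, 15.3 with cytokinin and 15.0 with both hormones, against 23.2 in control roots.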
